A study of Mus musculus with 18 samples.

Results

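To examine how oncogenic RAS and the loss of ribosomal S6 kinases affect a family of contact receptors and their ligands, the transcripts of 10 Eph and ephrin genes were followed in RNA-seq counts from 18 libraries of mouse embryonic fibroblasts (MEFs). The genes were given as a list of names, chosen with earlier results of these data known. They are 7 receptors (Epha2, Epha3, Epha4, Epha7, Ephb2, Ephb3 and Ephb4) and 3 ligands (Efna5, Efnb1 and Efnb2), out of 22 Eph and ephrin genes and of 55401 gene identifiers, 30065 of which had a count. Each of the 10 was found by 1 identifier and passed the filter on low counts in both series, with 49 to 2589 counts per library.

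MEFs are primary cells grown from midgestation embryos, here with head and viscera removed. In the S6K1 series, wild-type (WT) MEFs carried either a retroviral vector without insert (EV) or one for constitutively active HRAS (RAS), and S6K1-deficient (KO) MEFs carried the RAS vector. In the S6K1/S6K2 series the groups were WT with EV, WT with RAS, and RAS in MEFs that lack both S6K1 and S6K2 (DKO). Each of the 6 groups had 3 libraries, all cells carried a retrovirus, and KO or DKO cells with EV were not analysed here. The KO cells had WT littermates as controls, whereas the DKO embryos and their WT controls came from different mothers. The labels only number the replicates, and the study's methods describe MEFs of this design as coming from separate embryos and mothers. Same-numbered libraries were read as paired within the S6K1 series, and for EV and WT RAS of the S6K1/S6K2 series. The main fits did not use this pairing, so their p-values also hold differences between cultures that pairs share. When the number was taken into account, 8 of the 10 genes were called with RAS in the S6K1 series instead of 4.

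Eph receptors are transmembrane tyrosine kinases that bind ephrins on the surface of a neighbouring cell. A-type ephrins are held in the membrane by a lipid anchor and mostly bind EphA receptors, whereas B-type ephrins span the membrane, mostly bind EphB receptors and can signal into their own cell. Contact between the partners drives repulsion, the sorting of cells into separate territories and the guidance of axons and vessels, and in embryonic mesenchyme the family takes part in patterning the limb and body wall.

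Total counts per library were between 8319445 and 14402442. Rps6kb1, which encodes S6K1, had 61.5, 70.8 and 74.5 CPM (counts scaled to a library size of 1e6) in WT RAS and 23.5, 31.3 and 36.95 CPM in KO RAS, so every KO library was lower but not at 0, and the log2 fold change by edgeR was −1.17 (SE 0.17, adjusted p = 0.234), or −1.18 (SE 0.10, adjusted p = 1.01e-04) with the replicate number as a block. In the S6K1/S6K2 series Rps6kb1 had 75.4, 83.6 and 82.5 CPM in WT RAS and 34.4, 39.7 and 38.1 CPM in DKO RAS, at −1.11 (SE 0.11, adjusted p = 0.00908), again lower but not at 0. Rps6kb2, which encodes S6K2, had 24.5, 24.02 and 28.9 CPM in WT RAS and 2.67, 3.04 and 2.79 CPM in DKO RAS, at −3.18 (SE 0.17, adjusted p = 7.44e-05). Hras was higher with RAS in both series by edgeR, at log2 fold changes of 0.93 (SE 0.14, adjusted p = 0.00290) and 0.75 (SE 0.15, adjusted p = 0.00568); reads of the transgene were not separated from those of the gene. All 10 fibroblast markers were present in every group, and their summed level differed, from 43690 to 54100 CPM in EV to 23990 to 35720 CPM in WT RAS of the S6K1 series, and from 44030 to 51500 CPM to 25820 to 29490 CPM in the S6K1/S6K2 series. In the S6K1 series, replicate 3 of each group lay below replicates 1 and 2 on the second principal component (24.5% of the variance), and replicate 1 of WT EV in the S6K1/S6K2 series had the lowest mean correlation with its group (0.952). These libraries entered all fits, and where a call printed here changes without one of them its value is given beside the result.

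RAS raised Epha2 in both series and lowered 3 and 6 of the other 9 genes, with Epha4, Epha7 and Ephb3 lower in both. In the S6K1 series 1 gene rose (Epha2) and 3 fell (Epha4, Epha7 and Ephb3) with an adjusted p under 0.05 in edgeR, where 13.2% of the 14036 tested genes passed, 7.15% as higher and 6.09% as lower. In the S6K1/S6K2 series Epha2 rose and 6 genes fell (Epha3, Epha4, Epha7, Ephb3, Ephb4 and Efna5), where 26.3% of 13881 tested genes passed, 13.5% as higher and 12.7% as lower. The 4 genes called in the S6K1 series were all among the 7 called in the S6K1/S6K2 series, in the same direction. How many of all tested genes were called in both was not determined, so this overlap is a description only. The median log2 fold change over the 10 genes was −0.52 and −0.77, beside 0.00 and −0.02 over all tested genes. Because the 10 were chosen with earlier results of these data known, these shares and medians describe them and do not test the family as a set. With the replicate number as a block, 8 of the 10 were called in the S6K1 series (1 higher and 7 lower), where 36.2% of all tested genes passed. DESeq2 called 6 of the 10 in that series, where 2386 of 15829 genes passed. The added ones were Epha3 (adjusted p = 0.0118) and Ephb2 (adjusted p = 0.0304), both lower. In the S6K1/S6K2 series DESeq2 called the same 7 as edgeR, where 4116 of 16151 genes passed. In a bulk sample, fewer cells of a type and less RNA per cell cannot be told apart.

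**Figure D1:**
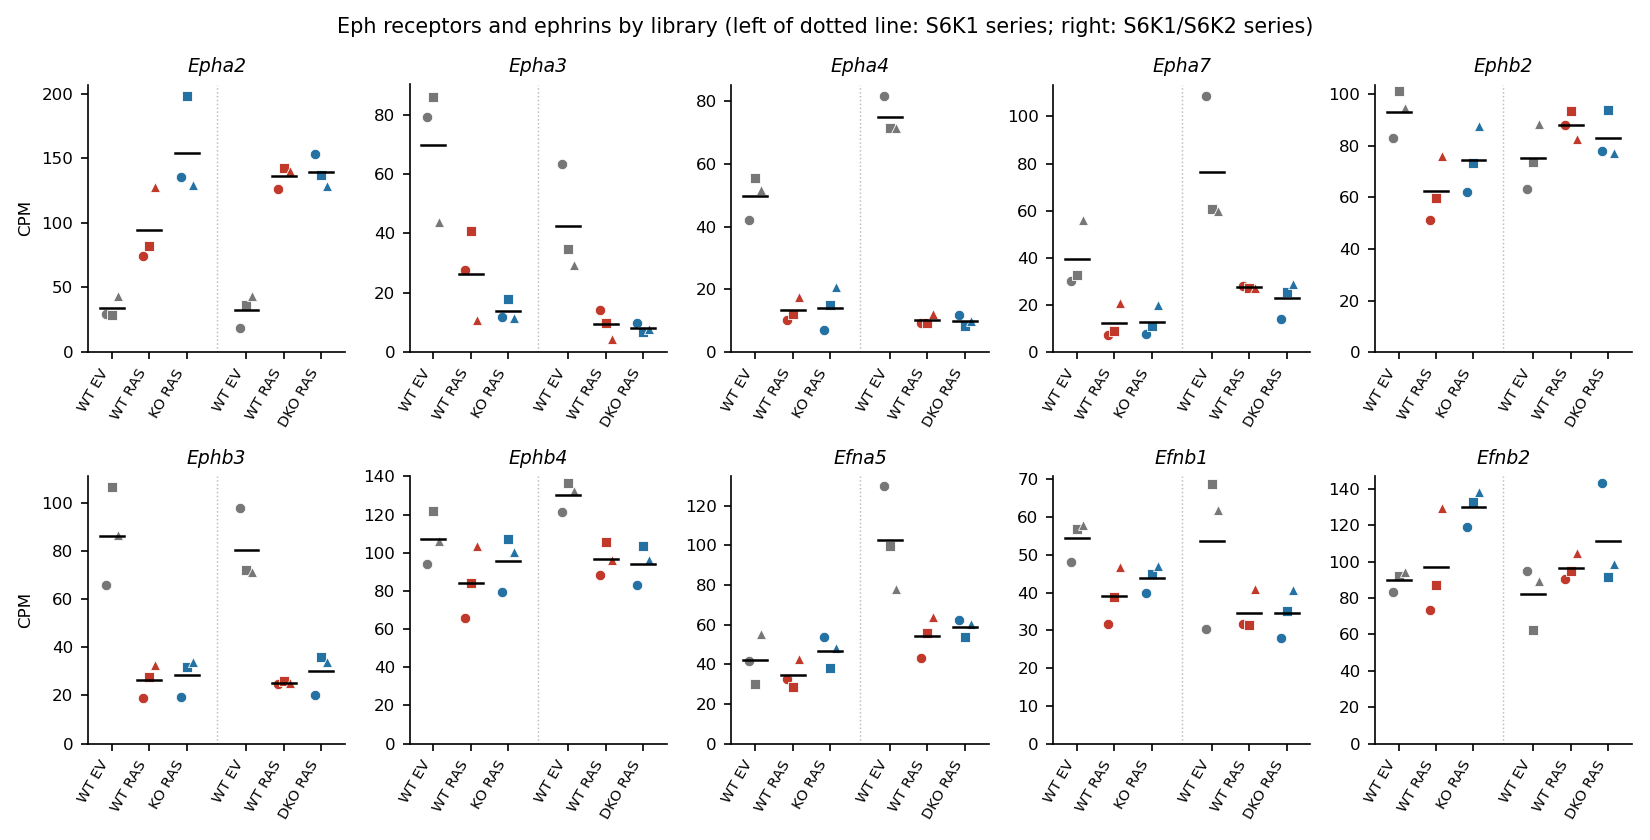
Level of each of the 10 genes in CPM (linear axis from 0, scaled within each series) in every library, with circles, squares and triangles for replicates 1, 2 and 3 and a black bar at the group mean. Grey is WT EV, red WT RAS and blue KO RAS (left of the dotted line) or DKO RAS (right); in all RAS groups Epha2 lies above its EV libraries, and Epha4 and Ephb3 lie below theirs.

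Epha2 encodes a receptor for A-type ephrins that is best known from epithelia and from tumours, and it lies at chr4:141301221-141329384 (RefSeq, GRCm38.p6). In the S6K1 series it had 29.5, 28.4 and 43.7 CPM in the EV libraries and 74.4, 82.04 and 128 CPM in the WT RAS libraries. The S6K1/S6K2 series gave 18.4, 36.3 and 43.5 CPM in EV and 126, 142 and 140 CPM in WT RAS. The groups did not overlap in either series. Its log2 fold change was 1.48 (SE 0.27, adjusted p = 0.00633) in the S6K1 series and 2.06 (SE 0.26, adjusted p = 7.74e-04) in the S6K1/S6K2 series by edgeR, a rise of about 2.8-fold and 4.2-fold. The call held without each of the 6 compared libraries in turn, with log2 fold changes of 1.21 to 1.71 and 1.77 to 2.33. Between cultures with the same replicate number, RAS over EV gave log2 differences of 1.32, 1.51 and 1.53 in the S6K1 series and 2.75, 1.95 and 1.68 in the S6K1/S6K2 series. The summed level of 10 epithelial markers was also higher with RAS, from 10.1 to 18.4 CPM in EV to 146 to 176 CPM in WT RAS of the S6K1 series and from 8.03 to 11.4 CPM to 146 to 176 CPM in the other. Krt18, a keratin of simple epithelia, had the highest level of that list in WT RAS, at 140, 142 and 103 CPM and 114, 82.6 and 75.4 CPM. In each series 2 of the 10 markers had more than 3 counts in every EV library, and 7 had so in every WT RAS library. Epcam and Cdh1, which define epithelial cells, stayed below 2 CPM in all libraries, and Krt5 and Krt14 in the S6K1 series and Krt14 and Esrp1 in the S6K1/S6K2 series had no count in WT RAS. The part of these markers in the Epha2 result was not tested.

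The DNA in front of Epha2, the member that rose, and of Epha4, the member that fell most in both series, is shown to let the upstream sequences be compared. Both are RefSeq GRCm38.p6 sequence read 5′ to 3′ on the strand of the gene and end at the last base before the gene's annotated extent. Epha2 is at chr4:141300971-141301220 on the plus strand and Epha4 at chr1:77515108-77515338 on the minus strand. Capitals mark matches on either strand to the motif letters searched, which are given further on.
Epha2 upstream: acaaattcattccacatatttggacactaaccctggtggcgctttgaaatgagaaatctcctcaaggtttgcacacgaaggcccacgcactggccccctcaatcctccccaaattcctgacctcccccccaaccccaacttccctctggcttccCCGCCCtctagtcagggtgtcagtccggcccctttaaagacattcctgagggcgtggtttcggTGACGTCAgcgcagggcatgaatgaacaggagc
Epha4 upstream: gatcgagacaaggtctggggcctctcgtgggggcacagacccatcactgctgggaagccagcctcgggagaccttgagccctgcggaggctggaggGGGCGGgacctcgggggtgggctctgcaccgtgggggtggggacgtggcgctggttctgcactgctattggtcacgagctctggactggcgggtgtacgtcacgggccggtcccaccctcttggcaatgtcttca
In the Epha2 sequence the capitals are 1 CRE match (TGACGTCA), which begins 33 bases before the start site, and 1 GC box. In the Epha4 sequence they are 1 GC box.

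Of the other EphA members, Epha4 and Epha7 were called lower in both series and Epha3 in 1. Epha4, which is unusual in binding both A-type and B-type ephrins, had 42.1, 55.4 and 51.6 CPM in EV and 10.3, 12.1 and 17.5 CPM in WT RAS of the S6K1 series. The corresponding values in the S6K1/S6K2 series were 81.7, 71.6 and 71.7 CPM and 9.39, 9.15 and 12.03 CPM. No RAS library reached the lowest EV library in either series. By edgeR the log2 fold change was −1.90 (SE 0.35, adjusted p = 0.00735) and −2.87 (SE 0.17, adjusted p = 3.26e-05), and the call held without each compared library in both series.

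Epha7, a receptor with roles in the developing nervous system, had 30.2, 32.9 and 55.9 CPM in EV and 7.16, 8.79 and 21.02 CPM in WT RAS of the S6K1 series. Its levels in the S6K1/S6K2 series were 108, 60.5 and 59.8 CPM and 28.2, 27.2 and 27.3 CPM. The groups were separate in both, although replicate 3 was the highest of its group in EV and in RAS of the S6K1 series. The log2 fold change by edgeR was −1.68 (SE 0.47, adjusted p = 0.0462) in the S6K1 series and −1.47 (SE 0.29, adjusted p = 0.00574) in the S6K1/S6K2 series. In the S6K1 series this call was near the threshold, and of the 6 compared libraries only WT RAS replicate 3 could be left out without losing it. The adjusted p was 0.0578, 0.0833 and 0.143 without WT EV replicates 1, 2 and 3, and 0.140 and 0.166 without WT RAS replicates 1 and 2. For each replicate number RAS lay below EV in that series, with the smallest log2 difference at −1.39 (replicate 3). With the replicate block the adjusted p was 1.32e-05, and 7 of 14 alternatives kept the call (adjusted p 1.32e-05 to 0.166).

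Epha3 is a receptor of mesenchymal and neural tissue. It had 79.3, 86.1 and 44 CPM in EV and 27.8, 40.8 and 10.8 CPM in WT RAS of the S6K1 series, and 63.5, 34.9 and 29.4 CPM and 14.2, 9.75 and 4.53 CPM in the S6K1/S6K2 series. All RAS libraries were below all EV libraries of their series. It fell in the S6K1/S6K2 series by edgeR, with a log2 change of −2.17 (SE 0.41, adjusted p = 0.00468). The S6K1 series gave −1.40 (SE 0.44, adjusted p = 0.0675), which did not pass, whereas with the replicate block the value was −1.48 (SE 0.20, adjusted p = 4.22e-04). Leaving out WT RAS replicate 2, the highest RAS library, gave −1.84 with an adjusted p of 0.0481, and 5 of 14 alternatives gave a call (0.000422 to 0.194). The summed level of 10 neural markers was higher with RAS, at 99.3 to 122 CPM in EV and 176 to 327 CPM in WT RAS of the S6K1 series and 22.2 to 94.8 CPM and 314 to 410 CPM in the other, with Nes (nestin) the highest and Rbfox3, which defines neurons, at 0 in each of these groups. That of 8 skeletal muscle markers was 56.4 to 86.2 CPM and 150.3 to 169 CPM, and 8.54 to 41.6 CPM and 79.9 to 232 CPM, with Acta1 the highest and Myod1 at 0. More than 3 counts in every library were found for 4 neural markers in EV and 5 in WT RAS of the S6K1 series. The S6K1/S6K2 series had 3 and 6 such neural markers, and 3 muscle markers reached this in each of these groups. The part of these markers in the results of the EphA receptors was not tested.

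Among the EphB receptors, Ephb3 fell in both series. Ephb3, which in the intestine takes part in positioning cells along the crypt, had 65.8, 107 and 86.8 CPM in EV and 19.01, 27.7 and 32.8 CPM in WT RAS of the S6K1 series. Its S6K1/S6K2 series values were 98.1, 72.1 and 71.4 CPM and 24.7, 25.9 and 25.1 CPM. The highest RAS library lay below the lowest EV library in each series. Its log2 fold change by edgeR was −1.71 (SE 0.28, adjusted p = 0.00376) and −1.67 (SE 0.22, adjusted p = 8.85e-04), and no left-out library ended either call.

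Ephb4, the receptor of Efnb2 best known for keeping arteries and veins apart, was called lower in 1 series. Its levels were 94.04, 122 and 106 CPM in EV and 65.6, 84.1 and 103 CPM in WT RAS of the S6K1 series, where the groups overlapped, and 121, 137 and 132 CPM and 88.1, 106 and 96.1 CPM in the S6K1/S6K2 series, where they did not. It fell in the S6K1/S6K2 series by edgeR, with a log2 change of −0.43 (SE 0.12, adjusted p = 0.0291), a call that was lost without WT EV replicate 2 or 3 or WT RAS replicate 1 or 3 (adjusted p 0.103, 0.0562, 0.0839 and 0.0915) and that 7 of 14 alternatives kept. In the S6K1 series the value was −0.35 (SE 0.19, adjusted p = 0.279), and −0.36 (SE 0.10, adjusted p = 0.0217) with the replicate block, the 1 alternative of 14 that gave a call (adjusted p up to 0.622).

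Ephb2, a receptor of B-type ephrins at synapses and in the gut, had opposite signs in the series. It was at 83.05, 101 and 94.6 CPM in EV and 51.3, 59.96 and 76.1 CPM in WT RAS of the S6K1 series, and at 63.4, 73.8 and 88.6 CPM and 88.1, 93.7 and 82.5 CPM in the S6K1/S6K2 series. Groups were separate in the first and overlapped in the second. The log2 fold changes by edgeR were −0.57 (SE 0.18, adjusted p = 0.0655) and 0.23 (SE 0.14, adjusted p = 0.268), so neither passed. With the replicate block the S6K1 series gave −0.59 (SE 0.10, adjusted p = 0.00121), and without WT RAS replicate 3 its adjusted p was 0.0260, with 4 of 14 alternatives giving a call (0.00121 to 0.199).

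Of the 3 ligands, 1 was called lower, and in 1 of the series. Efna5, an A-type ephrin of axon guidance, had 41.8, 29.99 and 55.1 CPM in EV and 32.7, 28.7 and 42.7 CPM in WT RAS of the S6K1 series, with overlap. In the S6K1/S6K2 series it had 130, 99.7 and 78.1 CPM and 43.3, 55.9 and 64.02 CPM, with every RAS library below the EV libraries. It fell in the latter by edgeR, with a log2 change of −0.92 (SE 0.20, adjusted p = 0.00935), beside −0.28 (SE 0.24, adjusted p = 0.499) in the S6K1 series.

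Efnb1, an X-linked B-type ephrin with a role in craniofacial and skeletal development, had 48.2, 56.9 and 58 CPM in EV and 31.8, 38.9 and 46.7 CPM in WT RAS of the S6K1 series, without overlap. In the S6K1/S6K2 series it had 30.2, 68.8 and 61.9 CPM and 31.7, 31.4 and 40.9 CPM, where WT EV replicate 1 was the lowest of the 6 libraries. The edgeR values were −0.47 (SE 0.16, adjusted p = 0.0813) and −0.63 (SE 0.28, adjusted p = 0.120). Efnb1 passed in the S6K1 series with the replicate block, at −0.48 (SE 0.09, adjusted p = 0.00207), and without WT RAS replicate 3 (adjusted p 0.0326), and in the S6K1/S6K2 series without WT EV replicate 1 (log2 fold change −0.92, adjusted p 0.00713). In each series 2 of 14 alternatives gave a call, with adjusted p up to 0.228 and 0.358.

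Efnb2, the arterial ligand of Ephb4, had 83.4, 91.97 and 94.5 CPM in EV and 73.7, 87.1 and 130 CPM in WT RAS of the S6K1 series, and 95.03, 62.3 and 89.5 CPM and 90.3, 95 and 105 CPM in the S6K1/S6K2 series. The groups overlapped in both. The summed level of 12 endothelial markers was 23.1 to 48.6 CPM over all libraries. Depending on the group, 4 to 8 of them had more than 3 counts in every library, with Erg or Egfl7 the highest. Sox17 or Cldn5 was at 0 in each group, and the part of these markers in the Ephb4 and Efnb2 values was not tested. The log2 fold changes of Efnb2 by edgeR, 0.11 (SE 0.19, adjusted p = 0.767) and 0.23 (SE 0.20, adjusted p = 0.416), did not pass.

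**Figure D2:**
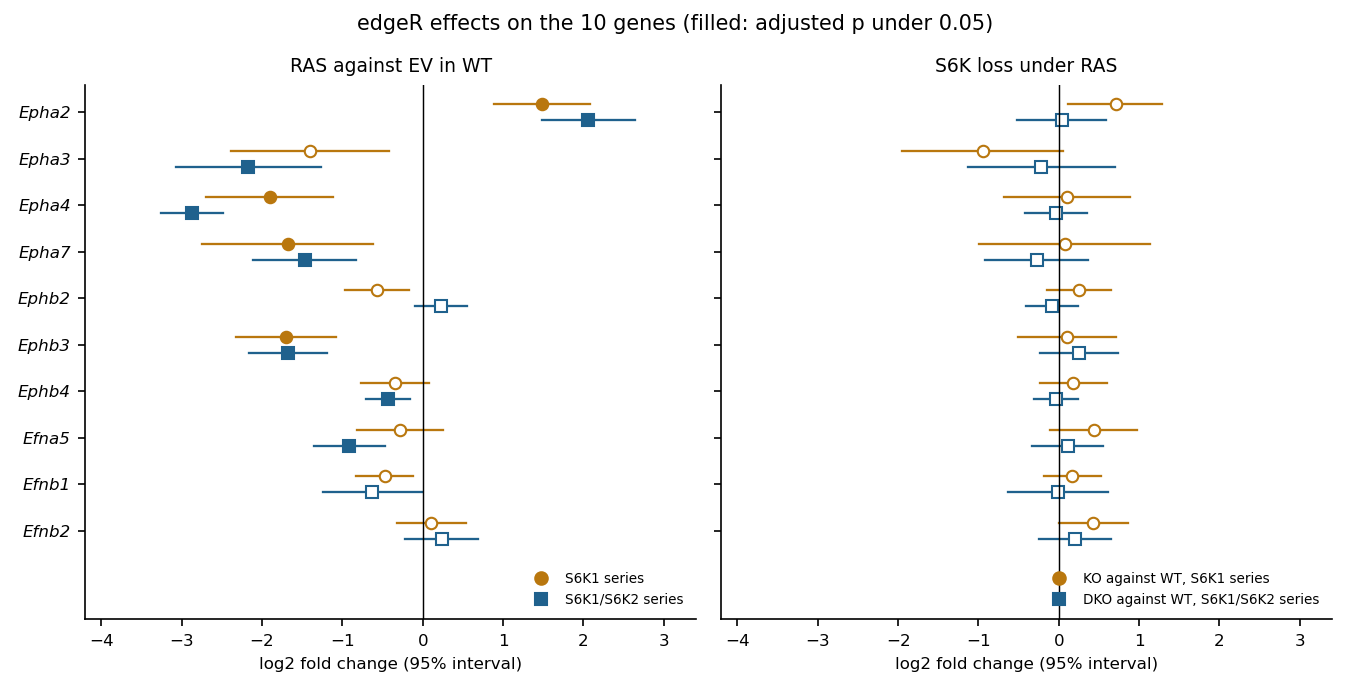
Log2 fold change of the 10 genes by edgeR with its 95% interval (horizontal bars), for RAS against EV in WT cells (left panel) and for S6K loss under RAS (right panel), with circles for the S6K1 series and squares for the S6K1/S6K2 series and filled symbols for an adjusted p under 0.05. Epha2 is the only filled symbol to the right of 0, and no symbol in the loss panel is filled.

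Levels of different genes were compared per length, as CPM divided by the exon length in kilobases. In EV cells Ephb4 had the highest level of the 10, at 23.1 ± 3.002 (SD, n = 3) CPM per kb in the S6K1 series and 28.04 ± 1.703 CPM per kb in the S6K1/S6K2 series, and Epha2 was in place 9, at 7.25 ± 1.83 and 6.999 ± 2.76 CPM per kb. In all 4 RAS groups Epha2 was in place 1, at 20.2 ± 6.15 CPM per kb in WT RAS and 33.03 ± 8.13 CPM per kb with S6K1 loss in the S6K1 series, and 29.1 ± 1.803 and 29.8 ± 2.72 CPM per kb in WT RAS and DKO RAS of the S6K1/S6K2 series. The order at the top was not sharp in 4 of the 6 groups: the range of Ephb4 overlapped that of Efna5 (25.4 ± 6.46 CPM per kb), which was next, in EV of the S6K1/S6K2 series, and the range of Epha2 overlapped that of Efnb2, which was next, in WT RAS and KO RAS of the S6K1 series and in DKO RAS. In WT RAS of the S6K1/S6K2 series Epha2 stood apart from Ephb4, which had 20.8 ± 1.87 CPM per kb. Place 9 of Epha2 in EV was not sharp either, as its range overlapped that of Ephb2 in both series.

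The make-up of the summed EphA level differed between EV and RAS, while the ranges of the sum in EV and WT RAS overlapped in both series. The sum was 34.8 ± 2.05 CPM per kb in EV, 32.6 ± 5.02 in WT RAS and 41.6 ± 9.51 in KO RAS for the S6K1 series. In the S6K1/S6K2 series it was 36.7 ± 5.95 CPM per kb in EV, 37.3 ± 1.06 in WT RAS and 36.6 ± 2.24 in DKO RAS. Epha2 held 20.98 ± 5.94% of that sum in EV and 61.4 ± 10.5% in WT RAS of the S6K1 series, and 20.1 ± 9.84% and 78.1 ± 2.93% in the S6K1/S6K2 series. The KO RAS libraries had 79.3 ± 5.802% and the DKO RAS libraries 81.5 ± 2.43%. The summed EphB level was 47.3 ± 7.08 CPM per kb in EV and 30.4 ± 6.495 in WT RAS of the S6K1 series, and 51.9 ± 1.93 and 36.5 ± 3.17 CPM per kb in the S6K1/S6K2 series, so that no WT RAS library reached the EV libraries of its series. These shares follow from the gene changes above and were not tested.

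**Figure D3:**
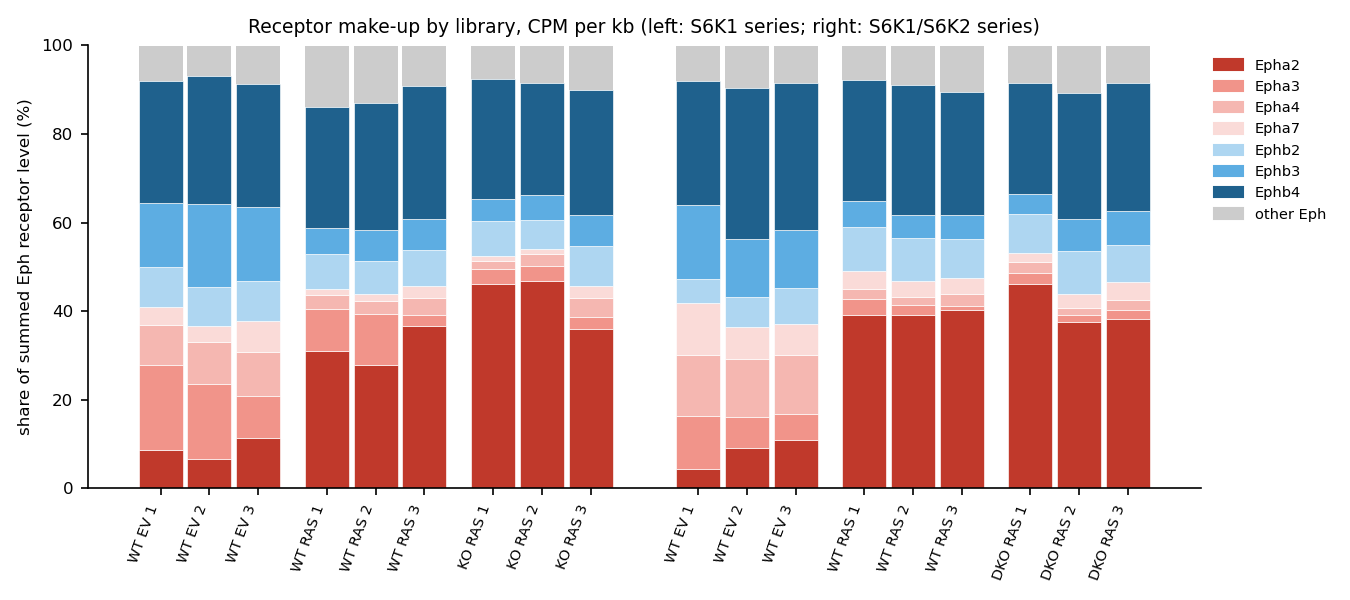
Share of each receptor in the summed level of all Eph receptors (percent of CPM per kb, stacked to 100) in each of the 18 libraries, with reds for EphA members, blues for EphB members and grey for the other Eph receptors. Epha2 (dark red) takes a larger share in every RAS, KO RAS and DKO RAS library than in any EV library. The mean shares of Epha3, Epha4, Epha7 and Ephb3 are lower in each RAS group than in EV of its series. Single libraries of Epha3 overlap in the S6K1 series, with 9.52% and 11.4% in WT RAS replicates 1 and 2 and 9.46% in WT EV replicate 3.

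To ask how loss of S6K1 affected these levels with RAS present, the KO RAS libraries were set against those of WT RAS. None of the 10 genes passed in edgeR, where 0.00712% of all tested genes did (1 gene), and DESeq2 also called none. At an unadjusted p under 0.05 edgeR gave 1 of the 10, Epha2, beside 6.86% of all genes, and DESeq2 gave 3, beside 6.95%. Epha2 had 136, 198 and 129 CPM in KO RAS, above all 3 WT RAS libraries, with a log2 change of 0.71 (SE 0.26, adjusted p = 0.590) and an interval (95%) of 0.12 to 1.29. The difference between cultures with the same number was 0.86, 1.27 and 0.02, so that it was near 0 for replicate 3. Epha3 had the lowest value, −0.95 (SE 0.44, adjusted p = 0.773), with 11.7, 17.9 and 11.5 CPM in KO RAS, and differences of −1.21, −1.16 and 0.09 by number. Efnb2 was at 119, 133 and 139 CPM in KO RAS, with a log2 change of 0.43 (95% interval −0.0022 to 0.86), and Efna5 at 54.04, 38.3 and 48.3 CPM, with 0.43 (95% interval −0.11 to 0.97). For the other 6 genes the log2 fold change was between 0.07 (Epha7) and 0.25 (Ephb2), and the interval of Epha7 ran from −0.995 to 1.14. The block fit called 4.15% of all genes and none of the 10, with the lowest adjusted p at 0.0741 (Epha3), and 5 of the 10 at an unadjusted p under 0.05, beside 17.8% of all genes. The summed level of 10 macrophage markers differed between these groups as well, at 260 to 1409 CPM in WT RAS and 78.7 to 291 CPM in KO RAS, and its part in these values was not tested.

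Loss of both kinases was examined in the same way. DKO RAS against WT RAS gave none of the 10 genes in edgeR, where 0.0216% of all tested genes passed, and DESeq2 gave none. At an unadjusted p under 0.05 there was again none of the 10, beside 1.29% of all genes. The log2 fold changes were between −0.27 (Epha7) and 0.25 (Ephb3). For Epha2, with 153, 137 and 128 CPM in DKO RAS, it was 0.03 (95% interval −0.52 to 0.59), and for Epha4, with 11.9, 8.199 and 9.91 CPM, −0.03 (95% interval −0.42 to 0.35). Ephb4 had the narrowest interval, at −0.04 (95% interval −0.31 to 0.24), and Epha3 the widest, at −0.22 (95% interval −1.13 to 0.70).

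Both loss groups were next set against EV cells, a contrast in which genotype and RAS differ together and which shares its EV libraries with the RAS comparison. KO RAS against WT EV called 5 of the 10 genes in edgeR, 1 higher and 4 lower, where 18.1% of all tested genes passed (9.55% higher and 8.56% lower). Epha2 had 2.19 (SE 0.27, adjusted p = 8.52e-04), Epha3 −2.35 (SE 0.45, adjusted p = 0.00771), Epha4 −1.80 (SE 0.35, adjusted p = 0.00777), Epha7 −1.61 (SE 0.47, adjusted p = 0.0440) and Ephb3 −1.60 (SE 0.27, adjusted p = 0.00423). The Epha7 call was lost without any 1 of the 3 WT EV libraries or without KO RAS replicate 1 or 2, with adjusted p between 0.0566 and 0.142, and 9 of 14 alternatives kept it. With the replicate block 8 genes passed, where 41.1% of all genes did, and the added ones were Ephb2 and Efnb1 (lower) and Efnb2 (higher), the last at 0.53 (SE 0.12, adjusted p = 0.00655). DKO RAS against WT EV called 7 of the 10, 1 higher and 6 lower, where 25.7% of all genes passed (13.1% higher and 12.6% lower). Epha2 had 2.09 (SE 0.26, adjusted p = 6.81e-04), Epha4 −2.91 (SE 0.17, adjusted p = 2.28e-05) and Ephb3 −1.42 (SE 0.21, adjusted p = 0.00169). Epha3, Epha7, Ephb4 and Efna5 were also lower, at log2 fold changes of −2.39, −1.74, −0.47 and −0.81. The Ephb4 call was lost without WT EV replicate 2 or DKO RAS replicate 1 or 3 (adjusted p 0.0759, 0.0707 and 0.0565), and that of Efna5 without DKO RAS replicate 2 (0.0698). They were kept in 10 and 13 of 14 alternatives. Efnb1, at −0.63 (SE 0.28, adjusted p = 0.119), passed without WT EV replicate 1, at −0.92 (adjusted p = 0.00658).

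The RAS effects of the series were compared directly over all 18 libraries. Any batch is confounded with the series there and cannot be told apart from it. No gene of the 14483 tested differed between series at an adjusted p under 0.05 in edgeR (0%), whereas DESeq2 called 142, and 12.6% had an unadjusted p under 0.05. Of the 10 genes, none passed by DESeq2 either, and 2 had an unadjusted p under 0.05 in edgeR. For Ephb2 the RAS effect was higher in the S6K1/S6K2 series by 0.79 (SE 0.23, adjusted p = 0.250) on the log2 scale, and for Epha4 the difference was −0.98 (SE 0.40, adjusted p = 0.348), a deeper fall in that series. Epha3, Ephb4 and Efna5 were called with RAS in the S6K1/S6K2 series only by the main edgeR fits. In the S6K1 series Epha3 also passed by DESeq2, and Epha3 and Ephb4 passed with the replicate block. The differences of Epha3, Ephb4 and Efna5 by edgeR were −0.79 (SE 0.64, adjusted p = 0.5955), −0.09 (SE 0.22, adjusted p = 0.873) and −0.64 (SE 0.32, adjusted p = 0.420). The effect of loss differed between the series for none of the 10 at either level, by edgeR or DESeq2, beside 0.0069% of all genes at an adjusted and 1.23% at an unadjusted p under 0.05. For Epha2 the difference between the loss effects was −0.65 (SE 0.38, adjusted p = 0.9999), so a KO effect apart from a DKO effect was not shown.

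The other 12 genes of the family were examined next. Epha6, Epha8, Epha10 and Ephb1 had 5, 1, 0 and 18 counts over all libraries and did not pass the filter. Of the 8 genes tested, none rose with RAS. In the S6K1 series 2 fell and in the S6K1/S6K2 series 3, beside 6.09% and 12.7% of all tested genes as lower. Efna1, an A-type ephrin that binds Epha2, fell in both by edgeR, at −1.41 (SE 0.39, adjusted p = 0.0441) and −2.08 (SE 0.46, adjusted p = 0.00985). It had 28.4, 25.8 and 11.7 CPM in EV and 5.93, 5.35 and 4.25 CPM in WT RAS of the S6K1/S6K2 series, and 4.45, 4.24 and 7.59 CPM and 1.79, 1.32 and 2.97 CPM in the S6K1 series, where 5 of the 6 left-out libraries ended the call (adjusted p 0.0615 to 0.161). Epha5 fell at −1.60 (SE 0.34, adjusted p = 0.0136) and −3.66 (SE 0.98, adjusted p = 0.0219) by edgeR, but its EV level in the S6K1/S6K2 series was 40.9, 5.38 and 2.09 CPM, and without WT EV replicate 1 the log2 fold change was −1.56. Without WT RAS replicate 1, 2 or 3 of that series the Epha5 call was lost (adjusted p 0.0647, 0.0735 and 0.0714), and in the S6K1 series it was 0.0515 without replicate 2 of WT RAS. Efna2 fell in the S6K1/S6K2 series, at −1.03 (SE 0.24, adjusted p = 0.0116), beside −0.19 (SE 0.27, adjusted p = 0.705) in the S6K1 series. The remaining genes Epha1, Ephb6, Efna3, Efna4 and Efnb3 passed in neither RAS comparison, with log2 fold changes between −1.57 (Efnb3) and 0.93 (Epha1). Efna3 passed in the S6K1 series with the replicate block, at −0.94 (SE 0.21, adjusted p = 0.00610), and without WT RAS replicate 3, at −1.57 (adjusted p = 0.0461 by edgeR) beside −0.86 (SE 0.49, adjusted p = 0.306) with all libraries. Efnb3 passed in the S6K1/S6K2 series without WT EV replicate 3, at −1.90 (adjusted p = 0.0397 by edgeR) beside −1.57 (SE 0.62, adjusted p = 0.0869). None of the 8 passed under either loss in edgeR, where the log2 fold changes were between −0.74 and 0.52, and DESeq2 called none. An unadjusted p under 0.05 was found for 1 (Epha1) and 0 of them in edgeR, beside 6.86% and 1.29% of all genes.

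A list of 49 genes that carry or end the Eph and ephrin signal was examined, of which 45 were tested in the S6K1 series and 44 in the S6K1/S6K2 series. With RAS 5 rose and 4 fell in the S6K1 series, and 13 rose and 3 fell in the S6K1/S6K2 series, that is 9 of 45 and 16 of 44 genes beside the 13.2% and 26.3% of all tested genes given above. With the replicate block 11 rose and 7 fell in the S6K1 series, beside the 36.2% of all tested genes. The median log2 fold change of the list was −0.01 and 0.27. This list too was chosen with earlier results of these data known, so its counts are a description and not a test. Ngef (ephexin 1), an exchange factor that acts below EphA receptors, rose by edgeR at 4.15 (SE 0.58, adjusted p = 0.00169) and 3.997 (SE 0.58, adjusted p = 0.00141), from 0.610, 0.265 and 0.262 CPM in EV to 6.26, 9.87 and 2.68 CPM in WT RAS of the S6K1/S6K2 series. Its EV libraries held at most 7 counts, so the size of that change is poorly set. Vav3, another exchange factor recruited by Eph receptors, rose at 1.65 (SE 0.15, adjusted p = 2.80e-04) and 1.90 (SE 0.26, adjusted p = 0.00107), from 10.4, 12.3 and 10.98 CPM in EV to 30.2, 34.99 and 40.6 CPM in WT RAS of the S6K1 series. Cblb, a ubiquitin ligase for receptor tyrosine kinases, rose at 0.92 (SE 0.15, adjusted p = 0.00439) and 1.14 (SE 0.12, adjusted p = 2.58e-04). Grip1, a scaffold that binds B-type ephrins, rose in the S6K1/S6K2 series at 2.42 (SE 0.35, adjusted p = 0.00148), beside 0.77 (SE 0.42, adjusted p = 0.282) in the S6K1 series.

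Of the genes on that list that fell, Grb10, an adaptor of receptor tyrosine kinases, had −1.07 (SE 0.17, adjusted p = 0.00305) and −0.92 (SE 0.13, adjusted p = 0.00132) by edgeR. Mmp14, a membrane protease able to cut Epha2, had −0.99 (SE 0.15, adjusted p = 0.00250) and −0.92 (SE 0.13, adjusted p = 0.00154). Rgs3, a regulator of G protein signalling below B-type ephrins, fell in the S6K1 series at −1.003 (SE 0.27, adjusted p = 0.0411), beside −0.59 (SE 0.35, adjusted p = 0.235) in the S6K1/S6K2 series. Itsn1, an exchange factor that works with Ephb2, fell in both, at −0.59 (SE 0.14, adjusted p = 0.0201) and −0.61 (SE 0.16, adjusted p = 0.0234). Of the 5 cytoplasmic tyrosine kinases on the list 1 rose in the S6K1 series (Src) and 4 in the S6K1/S6K2 series (Src, Fyn, Abl1 and Abl2), genes that were named after their values were seen. Among all tested genes 7.15% and 13.5% were higher. Neither loss comparison called a gene of the list in edgeR. At an unadjusted p under 0.05 there were 3 and 0 of them, beside 6.86% and 1.29% of all genes. The 3 were Src, Ptpro and Vav1, also named after their values were seen. DESeq2 also called none of the list under either loss. With the replicate block, which called 4.15% of all genes under S6K1 loss, Vav1, an exchange factor of blood cells, and Ptpro, a receptor phosphatase that acts on Eph receptors, were lower in KO RAS by edgeR, at −2.15 (SE 0.23, adjusted p = 3.88e-04) and −1.95 (SE 0.24, adjusted p = 9.42e-04). The summed macrophage markers given above had 260 to 1409 CPM in WT RAS and 78.7 to 291 CPM in KO RAS. The part of these markers in the Vav1 and Ptpro values was not tested.

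**Figure D4:**
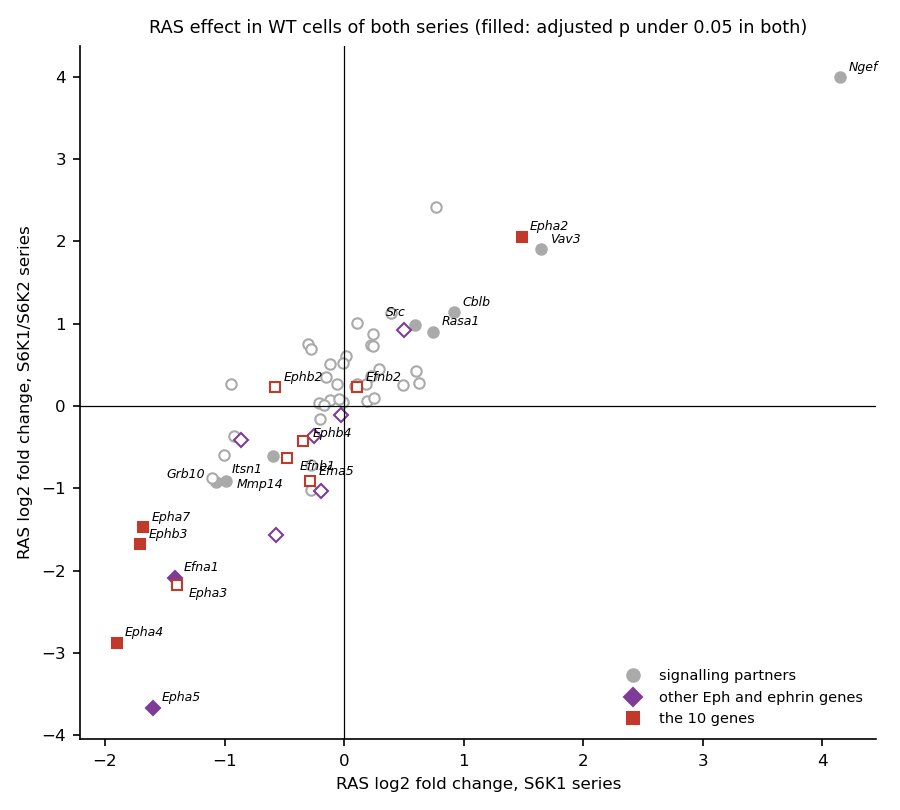
Log2 fold change of RAS against EV in the S6K1 series (horizontal axis) and in the S6K1/S6K2 series (vertical axis) for the 10 genes (red squares), the other Eph and ephrin genes (purple diamonds) and the signalling list (grey circles), each gene tested in both series being 1 point. Filled symbols had an adjusted p under 0.05 in both; Epha2 and Vav3 are in the upper right, and Epha4, Epha7, Ephb3, Efna1 and Epha5 in the lower left.

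For the genes called in both RAS comparisons, the gene outside the family with the most similar profile was found as the highest Pearson correlation of log2 CPM, centred on each series, over the 18 libraries. These points share groups and depth and carry no p-value. Epha2 was closest to Itga3, an integrin subunit for laminins (r = 0.980), and Spearman's correlation named the same gene (0.988). Epha4 was closest to Cdh11, a mesenchymal cadherin (r = 0.975), Epha7 to Ogn, a small proteoglycan of connective tissue (r = 0.972), and Ephb3 to Mtss1l (r = 0.984), and for these Spearman's correlation named other genes (Snx18, Gpr64 and Daam2). Among the members themselves Epha2 ran against Epha3 (r = −0.93), Epha4 (r = −0.88) and Ephb3 (r = −0.86), and Epha7 and Epha4 ran with Ephb3 (r = 0.93 and 0.92). The EV and RAS libraries of both series are all among these points.

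The 250 bases before the annotated start site were searched on both strands for 5 motifs, and all 10 genes had such a sequence (RefSeq, GRCm38.p6). The AP-1 letters TGANTCA, which 6.75% of 32851 mouse promoters hold, were in none of the 10. The ETS letters CCGGAANT (4.36% of promoters) and the E-box CACGTG (6.02%) were also in none. The CRE letters TGACGTCA (1.55%) were in Epha2 alone of the 10. The GC box GGGCGG (32.7%) was in Epha2, Epha4, Epha7, Ephb3, Ephb4, Efna5 and Efnb2, with 4 matches each in Ephb4 and Efna5, and no 2 matches overlapped. Some windows lay partly or wholly inside the gene's annotated extent. For Ephb2 this held for the whole window. For Ephb3 only 75 bases lay outside, and its GC boxes, which begin 128 and 113 bases before the start site, lay inside. For the windows of Epha7, 185 and 171 bases lay outside, and for Epha4 231. The search covered these letters in this window and says nothing of binding.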

How the data were processed

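The deposited count table holds raw counts per gene that the authors made from single-end poly(A) RNA-seq. The study's methods name TopHat, mm9 and HTSeq, whereas the submitters' processing notes name STAR 2.7.1a, mm10 and DESeq2 1.28.1, so aligner and build are not settled. Gene positions and promoters are RefSeq GRCm38.p6, and exon lengths are from the GENCODE annotation of NCBIM37. Symbols were found for 32589 identifiers (99.1% of counts).

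Each series was fitted over its 9 libraries in edgeR 4.0.16 (R 4.3.3): group as the only term, filterByExpr (minimum count 10), TMM, two-sided quasi-likelihood tests, Benjamini-Hochberg adjustment over all tested genes and a threshold of 0.05. The procedure was tested on simulated data. CPM were scaled within each series. No replicate pair agreed within sampling noise (lowest chi-square per degree of freedom 7.98). Alternatives were DESeq2 1.42.0, other scalings and filters, other sets of libraries, each library left out and the replicate block. Deviations from the group means correlated between same-numbered libraries at 0.684, 0.444 and 0.668 for EV and WT RAS of the S6K1 series, 0.692, 0.393 and 0.616 for WT RAS and KO RAS, 0.646, 0.489 and 0.510 for EV and KO RAS, and 0.366, 0.293 and 0.308 for EV and WT RAS of the S6K1/S6K2 series, so these were read as paired by number. WT RAS and DKO RAS (0.279, 0.454 and −0.035) and EV and DKO RAS (0.194, 0.295 and −0.118) were not. The main fits, with group as the only term, did not use this pairing, and only the replicate block did. The text names all 10 genes, those of the other 12 that were tested, the 3 highest and 3 lowest called genes of the signalling list per RAS comparison, and the most similar gene of members called in both. Members and lists were chosen with earlier results of these data known.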

Additional observations from a re-analysis of the deposited data

How the results depend on the processing

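Of 1200 log2 fold changes of the 10 genes recomputed under an alternative, 1156 kept their side of the threshold, 24 lost a call and 20 gained one, and 37 changed sign without being called in either fit. The calls of Epha2, Epha4 and Ephb3 with RAS held in all alternatives tried in both series. The replicate block moved the count of the 10 genes called most: with RAS in the S6K1 series from 4 to 8, and for KO RAS against WT EV from 5 to 8. In the signalling list it moved the genes called with RAS in the S6K1 series from 9 to 18 and under S6K1 loss from 0 to 2. It changed no other call of the 10 in the S6K1/S6K2 series or under loss, and there DKO and WT numbers did not pair. Leaving out 1 library gave 3 to 6 called genes with RAS in the S6K1 series, where 7.33% to 12.8% of all tested genes were called. All 60 per-length levels stayed within 1 SD under scaling over all 18 libraries. By Spearman's correlation the most similar gene was the same for 4 of 10. With 3 libraries per group and no KO or DKO cells with EV the precision is limited, and the effect of loss without RAS was not measured.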
